A study of Mus musculus with 18 samples.

Results

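Stiff+mito libraries were compared with Soft+mito libraries, that is, cells on a stiff matrix with cells on a soft matrix where both had received an addition labelled mito. The comparison takes the 3 Stiff+mito and the 3 Soft+mito libraries, 6 of the 18 in the series, and every gene of the deposited table. Of its 18397 genes, 12245 had enough counts to be tested. The other 4 groups, also of 3 libraries each, were Stiff-TW and Soft-TW, of a condition labelled TW, and Stiff and Soft, the 2 matrices alone. Whether the TW groups had also received mito is not said. Every library is labelled as made from RAW264.7 cells, a line of mouse macrophages that grew from an Abelson virus tumour, and holds RNA selected for poly(A) tails. The labels spell out neither mito nor TW and give no stiffness in any unit. The series title speaks of a transfer of mitochondria related to stiffness and of metabolic reprogramming. The labels do not say whether the 3 libraries of a group came from separate cultures, so each p-value reflects the spread among libraries alone, and that spread may be technical.

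Cells read the stiffness of their surroundings through collagen receptors and integrins, which pull on the matrix through actin and small GTPases such as Rhoa, and through transcriptional coactivators such as YAP. Stress inside mitochondria is known to act on the nucleus through the integrated stress response, in which the transcription factor Atf4 turns on genes of amino acid synthesis and transport. Cholesterol genes, antioxidant genes and immediate early genes each follow a transcription factor system of their own (SREBP2, NRF2, and serum response factor with MAP kinases), so they are described group by group.

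The 6 libraries held between 16288332 and 16887244 estimated counts, with 11788 to 11839 genes at 10 counts or more. A count of 0 in a library allows up to 3 counts, which is 0.101 to 0.109 TPM (transcript abundance scaled for length and depth) for a median gene, for counting error only. The leading axis of variation over the 6 libraries took 68.5% of the variance and separated the matrices, while the second axis took 9.30% and did not. The label RAW264.7 was checked against macrophage markers, and the data go against it. Cd14 and Mertk were the 2 of 18 markers that averaged 10 TPM or more over the 6 libraries. The defining receptors were near 0, with Csf1r at 0.0667 TPM in Stiff+mito and 0.200 TPM in Soft+mito, Adgre1 at 0.0467 and 0 TPM, and Ptprc (CD45, on all leukocytes) at 0.0400 TPM in both. The markers summed to 61.2 to 64.9 TPM in Stiff+mito, against 66.7 to 71.1 TPM in Soft+mito. Of 15 epithelial markers 2 averaged 10 TPM or more, the keratins Krt8 (476 TPM in Stiff+mito and 724 TPM in Soft+mito) and Krt18 (270 and 312 TPM), while Cdh1 and Epcam stayed under 1 TPM. The epithelial list summed to 734 to 760 TPM in Stiff+mito, against 1032 to 1044 TPM in Soft+mito. Of 14 fibroblast markers 6 averaged 10 TPM or more. The cells are therefore called by their group names here and given no cell type. In bulk RNA, fewer cells of a type and less RNA per cell cannot be told apart.

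With mito on both matrices, 7779 genes changed between stiff and soft at an adjusted p under 0.05 (63.5% of those tested). Of these, 4004 were higher (32.7%) and 3775 were lower (30.8%) in Stiff+mito. Most differences were small, with a median absolute log2 fold change of 0.296 among the changed genes. A fold of at least 2 was reached by 370 higher (3.02%) and 176 lower genes (1.44%), which together made 4.46% of the genes tested. A fold of at least 4 was reached by 56 higher and 26 lower genes. The 3 libraries of one group lay wholly above or below those of the other for 65.4% of the genes. On the 2 matrices alone, 6588 genes changed (53.8%) and 320 of them by at least 2-fold (2.61%). The biological coefficient of variation, the relative spread between libraries of a group beyond counting error, was 0.0175.

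The largest rises and falls were taken from called genes at a mean of 5 CPM (counts scaled for library size) or more. Their libraries also had to show no overlap between the groups, which held for 65.4% of all genes tested. Of these, the largest rise was in Tenm4, a teneurin of the cell surface known from neural development (gene ID 23966, mm10 chromosome 7, 96171244 to 96911093). It had 7.56, 7.74 and 7.33 TPM in the Stiff+mito libraries, against 0.58, 0.70 and 0.66 TPM in the Soft+mito libraries. The groups were far apart, with a log2 fold change of 3.48 ± 0.0704 (SE, n = 3 each, edgeR adjusted p 6.14e-71). Cdsn, which encodes corneodesmosin, an adhesion protein of cornified epithelium, had 76.7, 74.3 and 79.0 TPM in Stiff+mito, against 12.2, 10.0 and 10.3 TPM in Soft+mito. Its lowest Stiff+mito library was thus several times above its highest Soft+mito library (log2 2.81 ± 0.0483, adjusted p 9.62e-78). Both genes also rose on the stiff matrix alone, Tenm4 to 10.7 TPM in Stiff against 1.41 TPM in Soft, and Cdsn to 101 TPM against 24.5 TPM.

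Other large rises included enzymes of amino acid and one-carbon metabolism. Cth, the enzyme that makes cysteine from cystathionine, had 42.0, 39.6 and 40.0 TPM in Stiff+mito, against 9.10, 8.42 and 7.53 TPM in Soft+mito (log2 2.27 ± 0.0732, adjusted p 3.90e-52). Aldh1l2, the mitochondrial 10-formyltetrahydrofolate dehydrogenase, had 87.5, 86.3 and 87.7 TPM in Stiff+mito, against 19.2, 18.5 and 18.5 TPM in Soft+mito (log2 2.16 ± 0.0273). For neither gene did the groups overlap, which the rule above required. Acox2, a peroxisomal oxidase of branched fatty acids and bile acid precursors, averaged 6.91 ± 0.607 TPM in Stiff+mito and 1.30 ± 0.0321 TPM in Soft+mito (SD, n = 3 each). Stard5, a sterol-binding protein, averaged 28.9 ± 0.750 TPM in Stiff+mito and 9.06 ± 0.610 TPM in Soft+mito. Txnip, which binds thioredoxin and restrains glucose uptake, averaged 36.6 ± 1.15 TPM in Stiff+mito and 10.5 ± 0.905 TPM in Soft+mito.

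Among the other genes with the largest rises were secreted proteins. C3, the central complement component, was 3.22-fold higher, with 32.2, 32.9 and 32.9 TPM in Stiff+mito against 10.4, 10.6 and 9.43 TPM in Soft+mito. For C3 too the rule required libraries that did not overlap between the groups. Ogn, the small proteoglycan osteoglycin, had 52.5, 53.3 and 53.2 TPM in Stiff+mito, against 16.3, 16.6 and 16.2 TPM in Soft+mito. Angptl6, a secreted angiopoietin-like factor, was 3.98-fold higher at 25.5 TPM in Stiff+mito and 6.40 TPM in Soft+mito. Car6, the secreted carbonic anhydrase of saliva, was 3.34-fold higher at 23.1 TPM in Stiff+mito and 6.85 TPM in Soft+mito. Also among the 15 largest rises were Slc9a9 (an endosomal sodium-proton exchanger, log2 1.77), Med12l (a Mediator subunit paralog, log2 1.70) and Gvin2 (an interferon-inducible GTPase of a family with close copies, log2 1.67).

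By the same rule, the largest fall was in Gsta1. This glutathione S-transferase (gene ID 14857, mm10 chromosome 9, 78230669 to 78242683) had 11.4, 17.7 and 14.0 TPM in Stiff+mito, against 81.4, 81.5 and 90.1 TPM in Soft+mito. The highest Stiff+mito library stayed far below the lowest Soft+mito library (log2 -2.57 ± 0.0957, adjusted p 1.48e-39). Its close paralog Gsta2 averaged 7.08 ± 1.32 TPM in Stiff+mito and 26.4 ± 2.75 TPM in Soft+mito. Reads of such near-identical genes may have been divided between them, so the split between the pair is uncertain, and the same holds for Prl2c3, a placental prolactin-family gene, at 41.3 TPM in Stiff+mito and 153 TPM in Soft+mito. Gadd45b, a stress sensor that acts on MAP kinase signalling and DNA demethylation, had 14.1, 17.8 and 13.9 TPM in Stiff+mito, against 73.4, 74.0 and 74.7 TPM in Soft+mito (log2 -2.29 ± 0.0703). Tfrc, the transferrin receptor that brings iron into cells, had 45.3, 42.4 and 42.1 TPM in Stiff+mito, against 117, 114 and 109 TPM in Soft+mito (log2 -1.40 ± 0.0262). Neither gene had libraries that overlapped between the groups, which the rule for the largest changes required.

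Other large falls were Sprr1a, a cornified envelope precursor, at 25.4 TPM in Stiff+mito and 93.0 TPM in Soft+mito, and Mmp10, the secreted protease stromelysin 2, at 14.3 and 46.8 TPM. Sox2, a transcription factor of stem and progenitor cells, averaged 7.36 ± 0.864 TPM in Stiff+mito and 18.2 ± 0.678 TPM in Soft+mito. Sertad1, a regulator of cyclin-dependent kinase 4, averaged 34.6 ± 2.69 TPM in Stiff+mito and 83.6 ± 5.21 TPM in Soft+mito. H2ac18, a histone H2A gene of a multicopy family, averaged 60.4 ± 2.91 TPM in Stiff+mito and 207 ± 12.9 TPM in Soft+mito. The rest of the 15 largest falls were in Atp13a4, a P-type ATPase (1.38 TPM in Stiff+mito and 5.82 TPM in Soft+mito), Tafa5, a secreted neurokine (3.31 and 9.18 TPM), Slc6a4, the serotonin transporter (2.30 and 6.39 TPM), Tbc1d30, a Rab GTPase-activating protein (4.58 and 11.4 TPM), and Klk10, a kallikrein-related peptidase (6.39 and 15.5 TPM). Sprr1a and Klk10, which fell, are known from keratinocytes, and so is Cdsn, which was among the largest rises. Of the 4 epithelial markers that passed the filter on low counts, Krt8 and Krt18 fell, Grhl2 rose at under 1 TPM in both groups and Muc1 did not pass the test, so that the lower sum of that list came from the 2 keratins. The part of epithelial character in these changes was not tested.

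**Figure D1:**
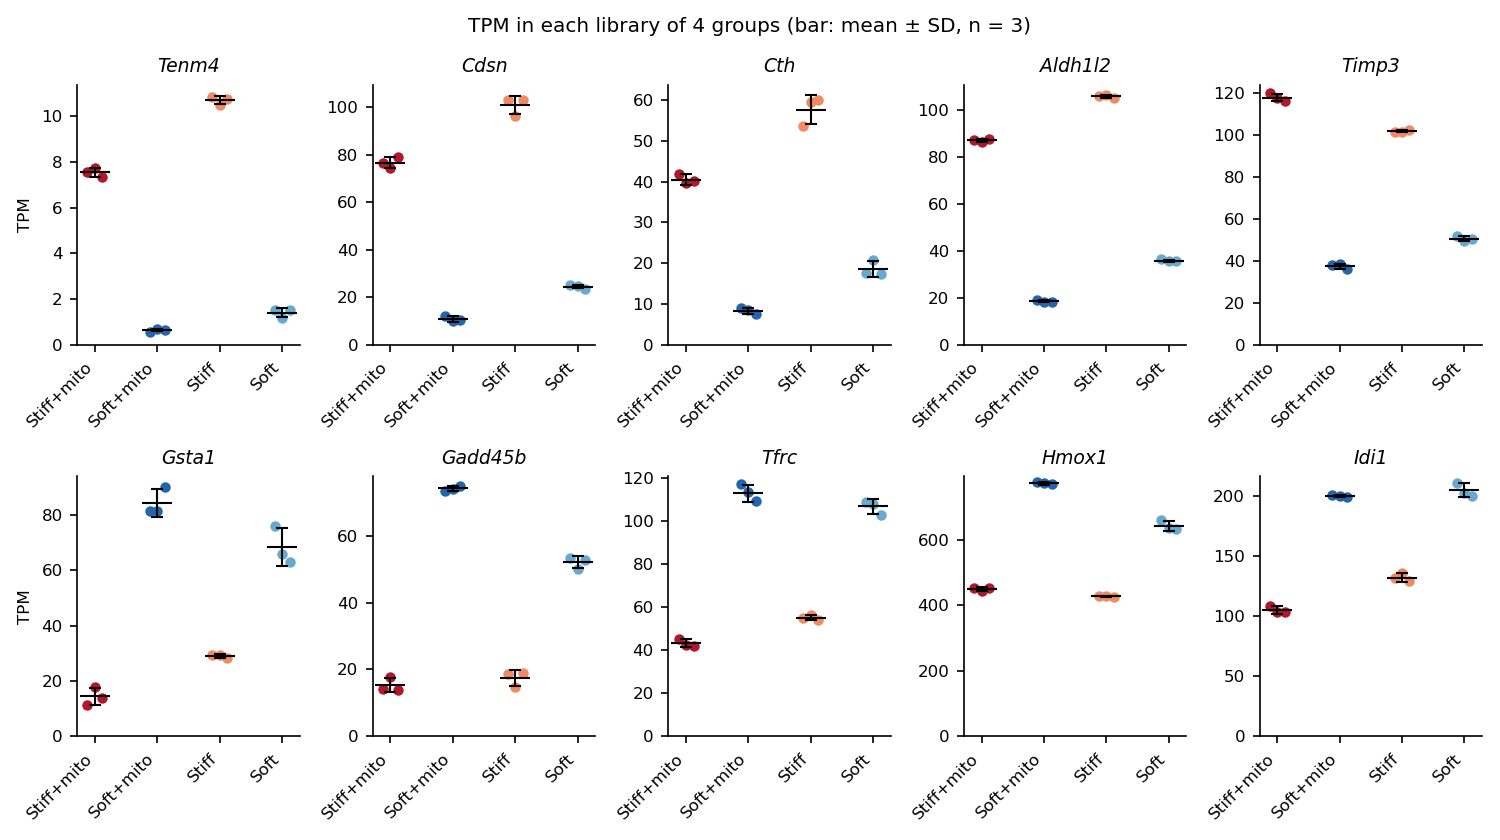
TPM of 10 genes (panels) in each library of Stiff+mito, Soft+mito, Stiff and Soft (points), with the mean and SD of 3 libraries (bars), on linear axes from 0. In every panel the 3 Stiff+mito points lie wholly on one side of the 3 Soft+mito points, as held in CPM for 65.4% of all genes tested. Genes of the largest rises and falls were picked for having no such overlap. Tenm4 averaged 7.54 TPM in Stiff+mito and 0.647 TPM in Soft+mito, and Gsta1 14.4 and 84.3 TPM.

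The collagen receptor Ddr2 was among the clearest changes in the machinery that senses the matrix. Ddr2, a kinase receptor for collagen fibrils (gene ID 18214, mm10 chromosome 1, 169972307 to 170110836), had 72.5, 69.5 and 69.7 TPM in Stiff+mito, against 29.3, 27.6 and 25.9 TPM in Soft+mito (log2 1.35 ± 0.0254, adjusted p 4.85e-74). The groups were separated by more than the whole range within either of them. Its relative Ddr1, which binds collagens of basement membranes too, moved little, at 23.5 ± 0.810 TPM in Stiff+mito and 21.0 ± 0.826 TPM in Soft+mito (log2 0.16, adjusted p 0.00105). Ptk2, the focal adhesion kinase, was slightly lower at 57.7 ± 0.493 TPM in Stiff+mito and 59.9 ± 1.93 TPM in Soft+mito (log2 -0.09, adjusted p 0.00443). Without the Soft+mito library of replicate 2 this call was lost (log2 -0.06, adjusted p 0.0611). Of 31 tested genes of collagen receptors, integrins and focal adhesions, 12 rose (38.7%) and 11 fell (35.5%), with a median log2 of -0.012 beside 0.014 over all genes. These shares lay near those over all genes tested, 32.7% higher and 30.8% lower, which are the background of every list count below. Those that rose included Nedd9, a docking protein of focal adhesions (20.2 TPM in Stiff+mito and 8.67 TPM in Soft+mito, log2 1.21), Tns1, the actin linker tensin 1 (21.7 and 12.5 TPM, log2 0.78), and Itgb4, the integrin subunit of hemidesmosomes (18.4 and 9.30 TPM, log2 0.99).

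Genes of the Rhoa and Rac1 family of GTPases and their regulators moved in both directions, with 21 of 40 higher and 10 lower and a median log2 of 0.133. The switches themselves shifted by small amounts: Rhoa had 382, 385 and 385 TPM in Stiff+mito, against 406, 408 and 404 TPM in Soft+mito (log2 -0.09, adjusted p 0.000164). Rac1, the GTPase of lamellipodia, had 358, 339 and 348 TPM in Stiff+mito, against 393, 392 and 390 TPM in Soft+mito (log2 -0.18, adjusted p 4.51e-13). Both genes were lower in every Stiff+mito library than in any Soft+mito library. Tiam1, an exchange factor that activates Rac1, was at 0.37, 0.34 and 0.36 TPM in Stiff+mito, against 0.02, 0.07 and 0.04 TPM in Soft+mito. The Soft+mito values are below the TPM that 3 counts give for a median gene, so no fold is given for it. Rhob, an endosomal relative of Rhoa that responds early to stimuli, averaged 102 ± 3.88 TPM in Stiff+mito and 73.4 ± 1.67 TPM in Soft+mito (log2 0.47), and Arhgef2, an exchange factor released from microtubules, averaged 72.1 ± 1.54 and 49.5 ± 2.03 TPM (log2 0.55).

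YAP and TAZ targets rose in 15 and fell in 5 of 25 tested genes, with a median log2 of 0.359. Ccn1, a matricellular protein and a common YAP reporter, rose by 0.72 on the log2 scale. Actin, myosin and serum response factor targets were balanced, with 13 of 32 higher (40.6%) and 14 lower (43.8%) and a median log2 of -0.033. Among them Cfl1, the actin-severing cofilin, was lower (log2 -0.63).

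Genes of the matrix that cells make themselves formed one of the groups with the highest medians. Of 42 tested genes of collagens, laminins and matrix glycoproteins, 27 rose and 7 fell, with a median log2 of 0.511. Fn1, fibronectin, had 345, 334 and 333 TPM in Stiff+mito, against 134, 127 and 118 TPM in Soft+mito (log2 1.41 ± 0.0208, adjusted p 1.42e-64). Spp1, the secreted integrin ligand osteopontin, had 2489, 2456 and 2537 TPM in Stiff+mito, against 1174, 1218 and 1186 TPM in Soft+mito (log2 1.05 ± 0.0188). In both genes the gap between the groups far exceeded the range within either. Col1a2, a chain of type I collagen, had 50.5, 49.9 and 46.9 TPM in Stiff+mito, against 21.5, 19.8 and 20.4 TPM in Soft+mito (log2 1.25 ± 0.0328). Thbs1, thrombospondin 1, which activates latent TGF-beta, had 19.4, 20.1 and 18.7 TPM in Stiff+mito, against 7.16, 7.58 and 6.42 TPM in Soft+mito (log2 1.45 ± 0.0488). Nid1, a linker of basement membranes, and Lamb1, a laminin chain, were higher by log2 0.63 and 0.58. The 7 that fell included Col4a1 (log2 -0.20) and Col4a2 (log2 -0.32), the chains of type IV collagen.

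The rise of this group was larger with mito than without it. On the matrices alone 19 rose and 13 fell, with a median log2 of 0.073, where 29.1% and 24.7% of all genes tested did. The test of the difference called 28 of 42 genes higher with mito and 1 lower, where 10.4% of all genes tested were called higher. With TW the group rose as well. There 32 of the 42 were higher in Stiff-TW and 4 lower, with a median of 0.400 (27.6% and 26.7% of all genes tested). The difference between mito and TW was called higher in 15 and lower in 10 (16.5% and 14.8% of all genes tested). Col5a3, a chain of type V collagen, averaged 12.7 ± 0.0794 TPM in Stiff+mito and 8.11 ± 0.327 TPM in Soft+mito, against 9.06 ± 0.466 TPM in Stiff and 9.85 ± 0.419 TPM in Soft (difference 0.67 ± 0.0707, adjusted p 2.63e-13). Thbs2, thrombospondin 2, averaged 87.4 ± 1.16 TPM in Stiff+mito and 60.7 ± 0.966 TPM in Soft+mito, against 70.4 ± 0.306 TPM in Stiff and 72.7 ± 1.66 TPM in Soft (difference 0.47 ± 0.0328). These 2 genes, named after their values were seen, changed between the matrices with mito and did not pass the test without it. Sparc, a collagen-binding matricellular protein, and Col4a5 and Col7a1, collagens of basement membrane and anchoring fibrils, were higher with mito and lower without it on the stiff matrix, by log2 0.09, 0.23 and 0.20 with mito and -0.13, -0.10 and -0.23 without it. Col7a1 had libraries that overlapped between Stiff+mito and Soft+mito. Genes of this group have long transcripts, with a median of 5838 bases against 3405.5 bases over 11902 tested genes with an annotated length. The difference with and without mito moved with transcript length across genes (Spearman's correlation 0.164), and the part of length in these values was not tested.

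**Figure D2:**
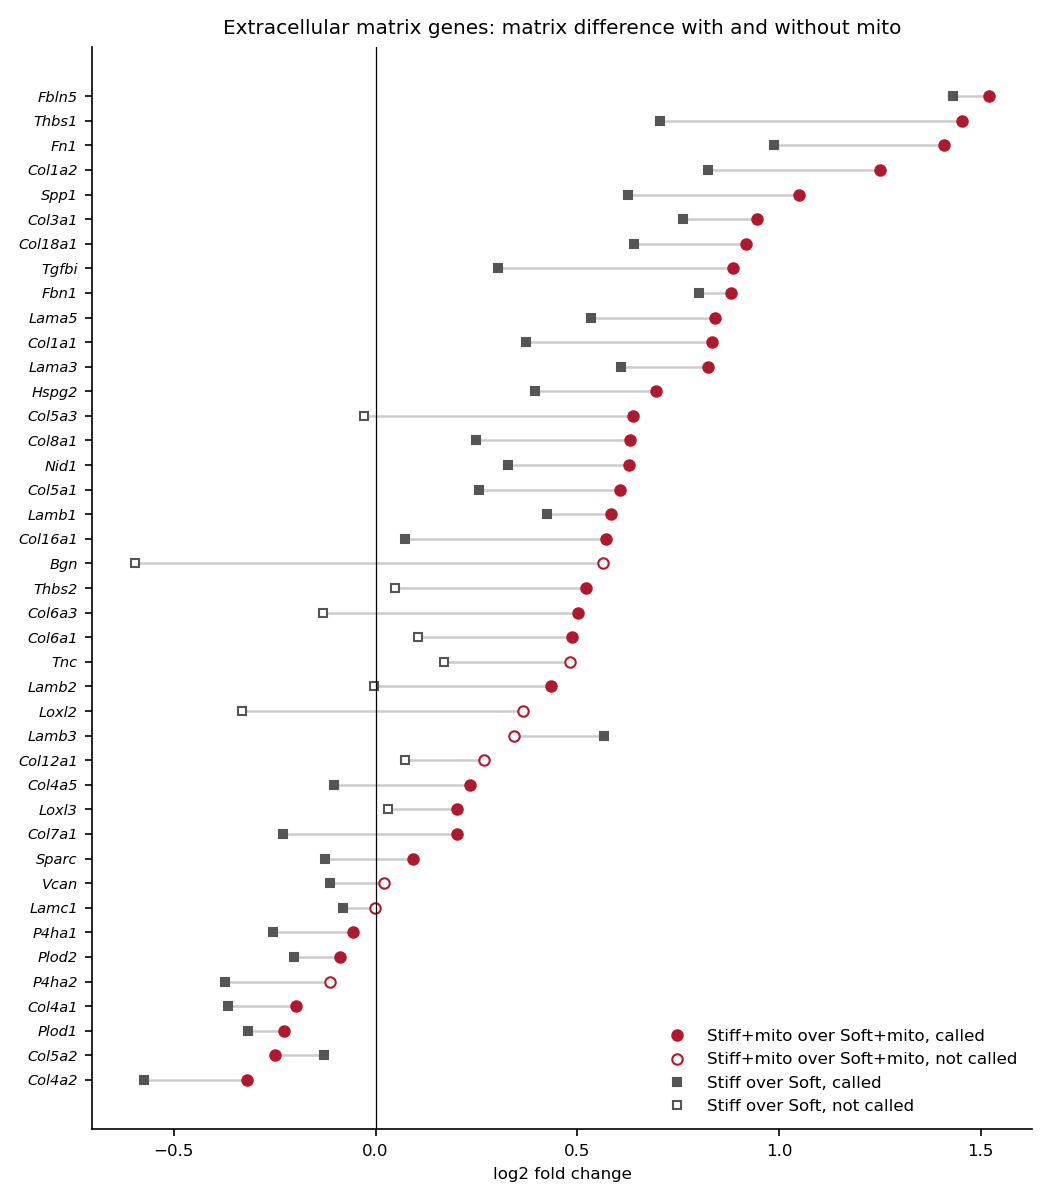
Log2 fold changes of 41 of the 42 tested collagens, laminins and matrix glycoproteins (rows), Stiff+mito over Soft+mito (circles) and Stiff over Soft (squares), filled where the adjusted p is under 0.05. Most circles lie to the right of their squares, as for Thbs1 at 1.45 with mito and 0.71 without it.

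Proteases and their inhibitors were mixed, with 10 of 24 higher (41.7%) and 9 lower (37.5%), near the 32.7% and 30.8% over all genes tested. Timp3, the matrix-bound inhibitor of metalloproteinases, had 120, 118 and 117 TPM in Stiff+mito, against 37.9, 38.7 and 36.4 TPM in Soft+mito (log2 1.65 ± 0.0260, adjusted p 2.61e-81). Plaur, the urokinase receptor that focuses plasmin on the cell surface, had 77.7, 74.5 and 79.7 TPM in Stiff+mito, against 183, 187 and 186 TPM in Soft+mito (log2 -1.27 ± 0.0345). The inhibitor was thus higher and the receptor lower in every Stiff+mito library. Mmp2, gelatinase A, was higher by log2 0.68, while Mmp10 was lower, as given above.

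Integrated stress response genes had the highest median of all 37 gene lists. Of 35 tested Atf4 targets and regulators, 29 rose and 3 fell, with a median log2 of 0.672. The rise was as broad in Stiff against Soft, where 33 of the 35 rose and 1 fell, with a median of 0.656. The difference was called higher with mito in 13 of them and lower in 9 (10.4% and 13.1% of all genes tested). Trib3, a pseudokinase induced by Atf4, had 168, 166 and 163 TPM in Stiff+mito, against 58.4, 57.6 and 56.4 TPM in Soft+mito (log2 1.52 ± 0.0312, adjusted p 2.96e-70). Asns, asparagine synthetase, had 310, 306 and 310 TPM in Stiff+mito, against 151, 163 and 145 TPM in Soft+mito (log2 1.00 ± 0.0252). In both genes the 3 Stiff+mito libraries were nearly equal and far above Soft+mito. Phgdh, which opens serine synthesis, was higher by log2 0.85, Shmt2, the mitochondrial serine hydroxymethyltransferase, by 0.94, and Aldh18a1, which opens proline synthesis in mitochondria, by 1.17. Pycr1, which closes proline synthesis there, averaged 11.0 ± 1.56 TPM in Stiff+mito and 3.82 ± 0.192 TPM in Soft+mito. The 3 that fell were Slc38a2, a neutral amino acid transporter, at 366 ± 3.91 TPM in Stiff+mito and 459 ± 10.7 TPM in Soft+mito (log2 -0.33), Slc7a11 and Ddit3. Slc7a11, the cystine importer, was measured at 77.5, 74.8 and 75.1 TPM in Stiff+mito against 90.6, 89.4 and 87.0 TPM in Soft+mito (log2 -0.24 ± 0.0218). Ddit3, the pro-apoptotic factor CHOP, averaged 113 ± 8.89 TPM in Stiff+mito and 123 ± 3.32 TPM in Soft+mito (log2 -0.13, adjusted p 0.0132). Without mito Slc38a2 was again lower on the stiff matrix (log2 -0.14), while Slc7a11 and Ddit3 were higher there, Slc7a11 at 109 TPM in Stiff and 102 TPM in Soft and Ddit3 at 213 and 156 TPM, and for these 2 genes the difference was called (adjusted p 1.69e-23 and 3.39e-12).

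The promoters of these genes are shown because Atf4 is known to bind a composite C/EBP-ATF element. RefSeq promoter windows (GRCm38.p6, 250 bases before to 50 bases after each gene start) were searched for TGATGNAAN on both strands, and overlap with other motifs was not counted. The element lay in 9 of the 29 list members that had a window (31.0%), in 2.78% of all tested genes with a window and in 3.95% of all windows. In the windows of Trib3 (chr2:152344011-152344310, minus strand), Asns (chr6:7693160-7693459, minus strand), Pycr1 (chr11:120643699-120643998, minus strand) and Slc7a11 (chr3:50443564-50443863, minus strand), the matches are in capitals.
Trib3: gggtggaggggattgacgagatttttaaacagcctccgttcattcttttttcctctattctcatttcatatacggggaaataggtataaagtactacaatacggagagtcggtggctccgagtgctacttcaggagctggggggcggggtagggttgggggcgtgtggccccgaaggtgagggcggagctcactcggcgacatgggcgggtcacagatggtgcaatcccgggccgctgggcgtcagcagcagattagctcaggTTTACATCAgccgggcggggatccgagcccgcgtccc
Asns: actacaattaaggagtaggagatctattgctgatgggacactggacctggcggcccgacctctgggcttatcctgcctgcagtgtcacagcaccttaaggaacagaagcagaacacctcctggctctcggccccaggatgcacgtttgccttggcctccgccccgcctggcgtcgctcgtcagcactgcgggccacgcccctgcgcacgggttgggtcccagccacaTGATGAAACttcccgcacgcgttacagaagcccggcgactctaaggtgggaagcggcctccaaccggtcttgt
Pycr1: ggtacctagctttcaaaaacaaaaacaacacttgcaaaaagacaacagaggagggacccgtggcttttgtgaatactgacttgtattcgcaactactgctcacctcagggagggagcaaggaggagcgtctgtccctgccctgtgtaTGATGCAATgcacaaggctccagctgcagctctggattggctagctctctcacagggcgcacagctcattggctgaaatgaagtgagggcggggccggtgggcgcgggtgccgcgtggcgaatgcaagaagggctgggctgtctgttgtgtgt
Slc7a11: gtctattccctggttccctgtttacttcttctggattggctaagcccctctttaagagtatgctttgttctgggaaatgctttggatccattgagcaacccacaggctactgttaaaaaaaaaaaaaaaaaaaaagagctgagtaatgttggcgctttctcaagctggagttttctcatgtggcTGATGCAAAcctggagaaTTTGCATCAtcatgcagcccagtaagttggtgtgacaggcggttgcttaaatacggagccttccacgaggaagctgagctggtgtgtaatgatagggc
Trib3, Asns and Pycr1 each held 1 match and rose, while Slc7a11 held 2 matches and was lower in Stiff+mito. A match is a description of the sequence and shows no binding.

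Cytosolic aminoacyl-tRNA synthetases, which charge tRNAs and are also Atf4 targets, rose in 14 and fell in 3 of 20 genes, with a median log2 of 0.424. In Stiff against Soft 16 of the 20 rose and 3 fell, with a median of 0.42. The test of the difference called 8 of the 20 lower with mito (40.0%) and 0 higher, where 13.1% and 10.4% of all genes tested were. Lars, the leucyl enzyme, had 195, 191 and 197 TPM in Stiff+mito, against 101, 101 and 97.3 TPM in Soft+mito (log2 0.96 ± 0.0226). The asparaginyl (Nars, log2 0.73) and tryptophanyl (Wars, log2 0.87) enzymes moved the same way. The unfolded protein response of the endoplasmic reticulum was divided, with 8 of 26 higher and 12 lower. Ero1a, the oxidase that forms disulfides there, was higher (log2 0.58), and Calr, the chaperone calreticulin, was lower (log2 -0.41). Cytosolic heat shock chaperones fell in 15 of 19 genes and rose in 1, with a median log2 of -0.381. They also fell in 14 and rose in 2 in Stiff against Soft, with a median of -0.265. For these chaperones the difference was called lower with mito in 12 of 19 (63.2%) and higher in 1, beside the same 13.1% and 10.4%. Hspa1b, an inducible HSP70 with a close copy in Hspa1a, had 49.5, 51.4 and 51.5 TPM in Stiff+mito, against 110, 106 and 107 TPM in Soft+mito (log2 -1.09 ± 0.0315). Hsp90aa1, the inducible HSP90, had 987, 953 and 962 TPM in Stiff+mito, against 1402, 1435 and 1412 TPM in Soft+mito (log2 -0.56 ± 0.0179).

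Nuclear genes of the respiratory chain were lower in Stiff+mito by small amounts. Of 37 complex I subunits 21 fell, with a median log2 of -0.111, and 0 rose by edgeR, by DESeq2 or at an unadjusted p under 0.05. Of 40 genes of complexes II to V 2 rose and 28 fell, with a median of -0.169. Atp5b, the catalytic subunit of ATP synthase, had 1002, 1014 and 998 TPM in Stiff+mito, against 1216, 1204 and 1213 TPM in Soft+mito (log2 -0.28 ± 0.0184). Cycs, cytochrome c, had 123, 118 and 119 TPM in Stiff+mito, against 139, 138 and 145 TPM in Soft+mito (log2 -0.24 ± 0.0255). These shifts were small, and yet each Stiff+mito library lay below each Soft+mito library. Uqcr11, a small complex III subunit, was lower too (667 ± 30.5 TPM in Stiff+mito and 900 ± 6.01 TPM in Soft+mito, log2 -0.51). Mitochondrial ribosomal proteins fell in 45 and rose in 9 of 78 genes, with a median log2 of -0.149, for example Mrpl18 (log2 -0.53).

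On the matrices alone these groups did not lean the same way as clearly. Complex I then had 7 higher and 10 lower (median -0.017), complexes II to V had 7 higher and 15 lower (median -0.050), and mitochondrial ribosomal proteins had 22 higher and 16 lower (median 0.008). The test of the difference called 7 complex I genes, 15 genes of complexes II to V and 25 mitochondrial ribosomal genes lower with mito (13.1% of all genes tested), against 1 complex I gene higher. With TW complex I had 1 higher and 7 lower (median -0.047), and complexes II to V had 5 higher and 17 lower (median -0.073). Mitochondrial ribosomal proteins had 4 higher and 36 lower there (median -0.114), where 27.6% and 26.7% of all genes tested were. Cycs was lower in Stiff+mito but higher in Stiff, with 136 ± 3.91 TPM in Stiff and 132 ± 3.25 TPM in Soft (difference -0.37 ± 0.0361, adjusted p 8.47e-15). The TPM of its Stiff and Soft libraries overlapped. Transcripts of these groups are short, with medians of 1026, 1231 and 1866 bases. In the lowest quartile of transcript length the median log2 was -0.037 with mito, and in the highest it was 0.072, and the part of transcript length in these values was not tested.

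Counts of the other mitochondrial lists are set beside the shares over all genes tested, 32.7% higher and 30.8% lower, from which most of them lay not far. Mitochondrial chaperones and proteases were higher in 6 (37.5%) and lower in 4 (25.0%) of 16, with a median log2 of -0.003. On the matrices alone 9 rose and 2 fell, with a median of 0.193. The test of the difference called 9 of the 16 lower with mito (56.2%) and 0 higher, where 13.1% and 10.4% of all genes tested were. Lonp1, the matrix protease that removes damaged proteins, had 183, 186 and 184 TPM in Stiff+mito, against 117, 111 and 104 TPM in Soft+mito (log2 0.73 ± 0.0249). Hspa9, the mitochondrial HSP70, was higher by log2 0.41, and Grpel1, its exchange factor, was lower (log2 -0.25). Genes of mitochondrial dynamics and mitophagy were higher in 4 (20%) and lower in 6 (30%) of 20, with 2 higher without Soft+mito replicate 2 or Stiff+mito replicate 3. Bnip3, a mitophagy receptor induced by hypoxia, averaged 167 ± 8.70 TPM in Stiff+mito and 262 ± 5.00 TPM in Soft+mito (log2 -0.66). Of 17 genes known from transport of mitochondria along the cytoskeleton and through nanotubes, 7 rose (41.2%) and 6 fell (35.3%). Gja1, connexin 43 of gap junctions, and Tnfaip2, which promotes nanotubes, were higher (log2 0.66 and 0.65), and Myo10, a motor of filopodia, was lower (log2 -0.72). Citric acid cycle genes rose in 7 (29.2%) and fell in 9 (37.5%) of 24, with 4 higher without Soft+mito replicate 1. For these 24 the difference with and without mito was called lower in 9 (37.5%) and higher in 2 (8.33%). Fatty acid oxidation genes rose in 9 (36.0%) and fell in 6 (24.0%) of 25. Pdk2, the kinase that shuts pyruvate dehydrogenase, averaged 11.0 ± 0.803 TPM in Stiff+mito and 5.55 ± 0.215 TPM in Soft+mito (log2 0.98).

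Genes for making ribosomes moved apart from genes for their proteins. Of 76 cytosolic ribosomal protein genes 42 rose and 2 fell, with a median log2 of 0.112, for example Rpl3 (log2 0.57 ± 0.0188). Ribosome biogenesis genes rose in 10 and fell in 17 of 36, with a median of -0.075. Npm1, nucleophosmin, had 1716, 1673 and 1689 TPM in Stiff+mito, against 1288, 1304 and 1289 TPM in Soft+mito (log2 0.38), while Nop2, a ribosomal RNA methyltransferase, was lower (log2 -0.43). Without mito, 22 of the 36 rose on the stiff matrix and 3 fell, with a median of 0.168. The test of the difference called 29 of the 36 lower with mito (80.6%), where 13.1% of all genes tested were. Ncl, nucleolin, averaged 436 ± 6.95 TPM in Stiff+mito and 375 ± 4.95 TPM in Soft+mito, against 518 ± 1.35 TPM in Stiff and 411 ± 2.18 TPM in Soft (difference -0.22 ± 0.0259). Gnl3, nucleostemin, averaged 127 ± 5.11 TPM in Stiff+mito and 150 ± 2.33 TPM in Soft+mito, against 158 ± 4.43 TPM in Stiff and 159 ± 2.50 TPM in Soft (difference -0.32 ± 0.0395). Myc itself, a driver of these genes, was higher with mito (163 and 111 TPM, log2 0.55) and without it (log2 0.58).

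Cholesterol synthesis and uptake had the lowest median of all lists. Of 23 tested genes 22 fell, with a median log2 of -0.490, and 0 rose by edgeR, by DESeq2 or at an unadjusted p under 0.05. Idi1, isopentenyl diphosphate isomerase, had 109, 104 and 103 TPM in Stiff+mito, against 200, 200 and 199 TPM in Soft+mito (log2 -0.93 ± 0.0245, adjusted p 3.85e-60). Hmgcs1, which makes the substrate of HMG-CoA reductase, had 68.7, 68.3 and 68.0 TPM in Stiff+mito, against 112, 110 and 110 TPM in Soft+mito (log2 -0.70 ± 0.0264). Cyp51, lanosterol demethylase, had 68.9, 70.2 and 66.3 TPM in Stiff+mito, against 115, 118 and 116 TPM in Soft+mito (log2 -0.77 ± 0.0247). The 3 Stiff+mito libraries lay far below the 3 Soft+mito libraries for each of these enzymes. The gene that did not pass was Srebf2, which encodes their transcription factor SREBP2, at 147 ± 1.91 TPM in Stiff+mito and 148 ± 8.27 TPM in Soft+mito (adjusted p 0.551). The fall was present without mito, where 21 fell with a median of -0.292. The test of the difference called 13 genes lower with mito (56.5%), where 13.1% of all genes tested were. In the TW condition the direction was the opposite, with 18 of the 23 genes higher in Stiff-TW than in Soft-TW (27.6% of all genes tested). Hmgcs1 averaged 133 TPM in Stiff-TW and 112 TPM in Soft-TW. The difference between mito and TW was called lower in 22 of the 23 (14.8% of all genes tested). Fatty acid synthesis genes were lower in 9 and higher in 4 of 17, among them Fasn, fatty acid synthase (log2 -0.47).

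Glycolysis genes fell in 14 and rose in 7 of 23, with a median log2 of -0.109. Eno1, an enolase with many processed copies in the genome, had 742, 761 and 768 TPM in Stiff+mito, against 1281, 1254 and 1263 TPM in Soft+mito (log2 -0.75 ± 0.0195). Ldha, lactate dehydrogenase A, had 1383, 1405 and 1402 TPM in Stiff+mito, against 1987, 1984 and 1994 TPM in Soft+mito (log2 -0.52 ± 0.0182). On the stiff matrix alone Eno1 and Ldha were lower too (log2 -0.70 and -0.44). Other targets of hypoxia-inducible factor fell in 14 and rose in 7 of 24. Against that lean, the carbonic anhydrases of the cell surface rose with mito: Car9 had 77.0, 76.9 and 70.5 TPM in Stiff+mito, against 39.2, 37.4 and 37.6 TPM in Soft+mito (log2 0.96 ± 0.0410). Car12 averaged 14.2 ± 0.931 TPM in Stiff+mito and 6.86 ± 0.497 TPM in Soft+mito (log2 1.04 ± 0.0642).

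NRF2 and antioxidant genes fell in 22 and rose in 6 of 32, with a median log2 of -0.189. Hmox1, heme oxygenase 1, had 452, 443 and 454 TPM in Stiff+mito, against 777, 772 and 769 TPM in Soft+mito (log2 -0.79 ± 0.0204, adjusted p 5.10e-61). Srxn1, sulfiredoxin, which repairs oxidised peroxiredoxins, had 361, 352 and 361 TPM in Stiff+mito, against 594, 589 and 572 TPM in Soft+mito (log2 -0.72 ± 0.0192). Nqo1, a quinone reductase, had 738, 732 and 732 TPM in Stiff+mito, against 1062, 1095 and 1080 TPM in Soft+mito (log2 -0.57 ± 0.0197). The libraries of the groups were widely separated for these 3 genes. The pentose phosphate enzymes Pgd, Taldo1 and G6pdx, also NRF2 targets, were lower too (log2 -0.66, -0.57 and -0.36). Without mito the list was nearer balance, with 9 higher and 14 lower (median -0.040). The test of the difference called 18 of 32 lower with mito (56.2%) and 1 higher, where 13.1% and 10.4% of all genes tested were. With TW 24 of the 32 were lower on the stiff matrix and 4 higher, with a median of -0.219 (26.7% and 27.6% of all genes tested).

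The antioxidant response element, searched as TGACNNNGC on both strands, lay in 9 of 28 windows of these genes (32.1%) and in 16.7% of all tested genes with a window. This search was added after the data were seen, and overlap with other motifs was not counted. The windows of Srxn1 (chr2:152105274-152105573, plus strand) and of Hmgcs1 from the cholesterol group (chr13:119690101-119690400, plus strand) are shown with their matches in capitals, for Hmgcs1 the sterol element TCACNCCAC.
Srxn1: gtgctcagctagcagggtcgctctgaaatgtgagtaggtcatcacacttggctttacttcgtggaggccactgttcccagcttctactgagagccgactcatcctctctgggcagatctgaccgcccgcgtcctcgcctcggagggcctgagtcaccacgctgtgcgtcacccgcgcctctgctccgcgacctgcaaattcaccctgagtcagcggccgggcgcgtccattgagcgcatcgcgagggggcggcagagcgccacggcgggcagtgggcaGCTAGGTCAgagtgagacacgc
Hmgcs1: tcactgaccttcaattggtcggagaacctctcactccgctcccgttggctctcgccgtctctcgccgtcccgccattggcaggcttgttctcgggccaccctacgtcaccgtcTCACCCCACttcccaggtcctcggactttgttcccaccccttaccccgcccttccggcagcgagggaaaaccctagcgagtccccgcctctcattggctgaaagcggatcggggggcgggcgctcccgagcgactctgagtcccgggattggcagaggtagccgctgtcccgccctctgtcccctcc
Hmgcs1 was the 1 gene with the sterol element among 16 cholesterol genes with a window (6.25%), where 1.32% of all tested genes with a window held it.

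Immediate early genes, the transcription factors induced within minutes of a stimulus, rose in 17 and fell in 7 of 27, with a median log2 of 0.262. Fos had 241, 247 and 241 TPM in Stiff+mito, against 133, 127 and 124 TPM in Soft+mito (log2 0.92 ± 0.0275, adjusted p 6.33e-55). Jun, its partner in AP-1, had 143, 146 and 152 TPM in Stiff+mito, against 92.8, 94.4 and 89.7 TPM in Soft+mito (log2 0.67 ± 0.0261). Fosb had 163, 157 and 153 TPM in Stiff+mito, against 87.8, 85.7 and 75.0 TPM in Soft+mito (log2 0.92 ± 0.0287). These AP-1 genes were all higher in every Stiff+mito library, whereas Fosl1, an AP-1 member linked to invasion, was lower (log2 -0.73). On the matrices alone 7 rose and 13 fell, with a median of -0.067. The difference was called higher with mito in 13 of 27 genes (48.1%) and lower in 3 (11.1%), where 10.4% and 13.1% of all genes tested were. With TW 16 of the 27 rose on the stiff matrix and 7 fell, with a median of 0.125 (27.6% and 26.7% of all genes tested). MAP kinase feedback inhibitors did not follow, with 3 of 16 higher and 9 lower. Dusp1, a phosphatase of these kinases that is itself induced early, was higher (log2 0.46). The cAMP response element TGACGTCA, searched on both strands, lay in 2 of 21 windows of immediate early genes (9.52%) and in 3.56% of all tested genes with a window.

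NF-kB targets, chemokines and cytokines rose in 26 and fell in 1 of 31, with a median log2 of 0.447. Cxcl1, a chemokine for neutrophils, had 184, 200 and 196 TPM in Stiff+mito, against 123, 115 and 116 TPM in Soft+mito (log2 0.69 ± 0.0415). Vcam1, an adhesion molecule for leukocytes, averaged 14.6 ± 0.210 and 7.39 ± 0.231 TPM (log2 0.97), and Nfkbiz, a nuclear cofactor of NF-kB, was higher by log2 0.78. Interferon-stimulated genes rose in 24 and fell in 3 of 40 (5 without Soft+mito replicate 3, median 0.341), and MHC class I presentation genes rose in 14 and fell in 1 of 17 (median 0.453). Psmb8, a subunit of the immunoproteasome, had 69.8, 69.8 and 67.6 TPM in Stiff+mito, against 36.8, 33.1 and 35.7 TPM in Soft+mito (log2 0.96 ± 0.0557). H2-Q4, a nonclassical class I gene with close relatives, averaged 135 ± 6.39 TPM in Stiff+mito and 75.5 ± 2.19 TPM in Soft+mito (log2 0.83). Tap1, which carries peptides into the endoplasmic reticulum, was higher by the same log2 of 0.83. On the matrices alone NF-kB targets rose in 25 and fell in 2, and MHC class I genes rose in 15 and fell in 2.

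Genes of mitosis were higher in Stiff+mito in all 45 tested members, with a median log2 of 0.411. Top2a, the topoisomerase that untangles chromosomes, had 149, 146 and 145 TPM in Stiff+mito, against 100, 102 and 99.2 TPM in Soft+mito (log2 0.54 ± 0.0213). Ccnb1, cyclin B1, had 107, 105 and 107 TPM in Stiff+mito, against 77.0, 75.5 and 79.0 TPM in Soft+mito (log2 0.45 ± 0.0323). All 45 were also higher in Stiff than in Soft and in Stiff-TW than in Soft-TW, with medians of 0.459 and 0.769. In 44 of them the rise was smaller with mito than with TW by the test of that difference. This test called 14.8% of all genes tested lower with mito. DNA replication genes did not share this, with 9 of 38 higher and 17 lower. Pcna, the sliding clamp of DNA polymerases, had 424, 446 and 422 TPM in Stiff+mito, against 716, 730 and 751 TPM in Soft+mito (log2 -0.78 ± 0.0246). Slbp, which binds histone mRNA in S phase, was lower by a log2 of -0.60. Targets of p53 rose in 16 and fell in 5 of 25. Gadd45a, a stress sensor that is also induced by Atf4, had 179, 174 and 168 TPM in Stiff+mito, against 82.4, 80.3 and 84.0 TPM in Soft+mito (log2 1.06 ± 0.0383). Cdkn1a, the cell cycle inhibitor p21, moved the other way with 250, 250 and 255 TPM in Stiff+mito, against 369, 358 and 347 TPM in Soft+mito (log2 -0.52 ± 0.0231).

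Signalling by growth factors and TGF-beta showed no common direction. Of 30 growth factors and receptors 12 rose and 8 fell. Pdgfrb, a receptor of platelet-derived growth factor, had 6.92, 5.90 and 6.63 TPM in Stiff+mito, against 2.43, 2.02 and 2.54 TPM in Soft+mito (log2 1.47 ± 0.0874). Hbegf, a ligand of the EGF receptor, had 19.6, 15.4 and 16.2 TPM in Stiff+mito, against 35.9, 36.6 and 35.7 TPM in Soft+mito (log2 -1.09 ± 0.0550). Of 28 TGF-beta and BMP genes 11 rose and 12 fell. The BMP target genes Id1, Id2 and Id3, inhibitors of differentiation factors, were lower together: Id1 had 255, 249 and 258 TPM in Stiff+mito, against 488, 498 and 500 TPM in Soft+mito (log2 -0.97 ± 0.0294), and Id2 and Id3 had log2 fold changes of -1.11 and -0.99. Lysosome genes fell in 23 and rose in 10 of 38, for example Ctsa, a protective peptidase (log2 -0.47), and Lamp1, a membrane glycoprotein (log2 -0.34). Endocytosis and caveola genes fell in 18 and rose in 13 of 36. Cavin2, which shapes caveolae, had 93.1, 90.2 and 85.6 TPM in Stiff+mito, against 51.9, 56.1 and 53.1 TPM in Soft+mito (log2 0.73), and Flot1, flotillin 1 of membrane rafts, averaged 26.3 ± 1.21 and 11.7 ± 0.693 TPM (log2 1.16).

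**Figure D3:**
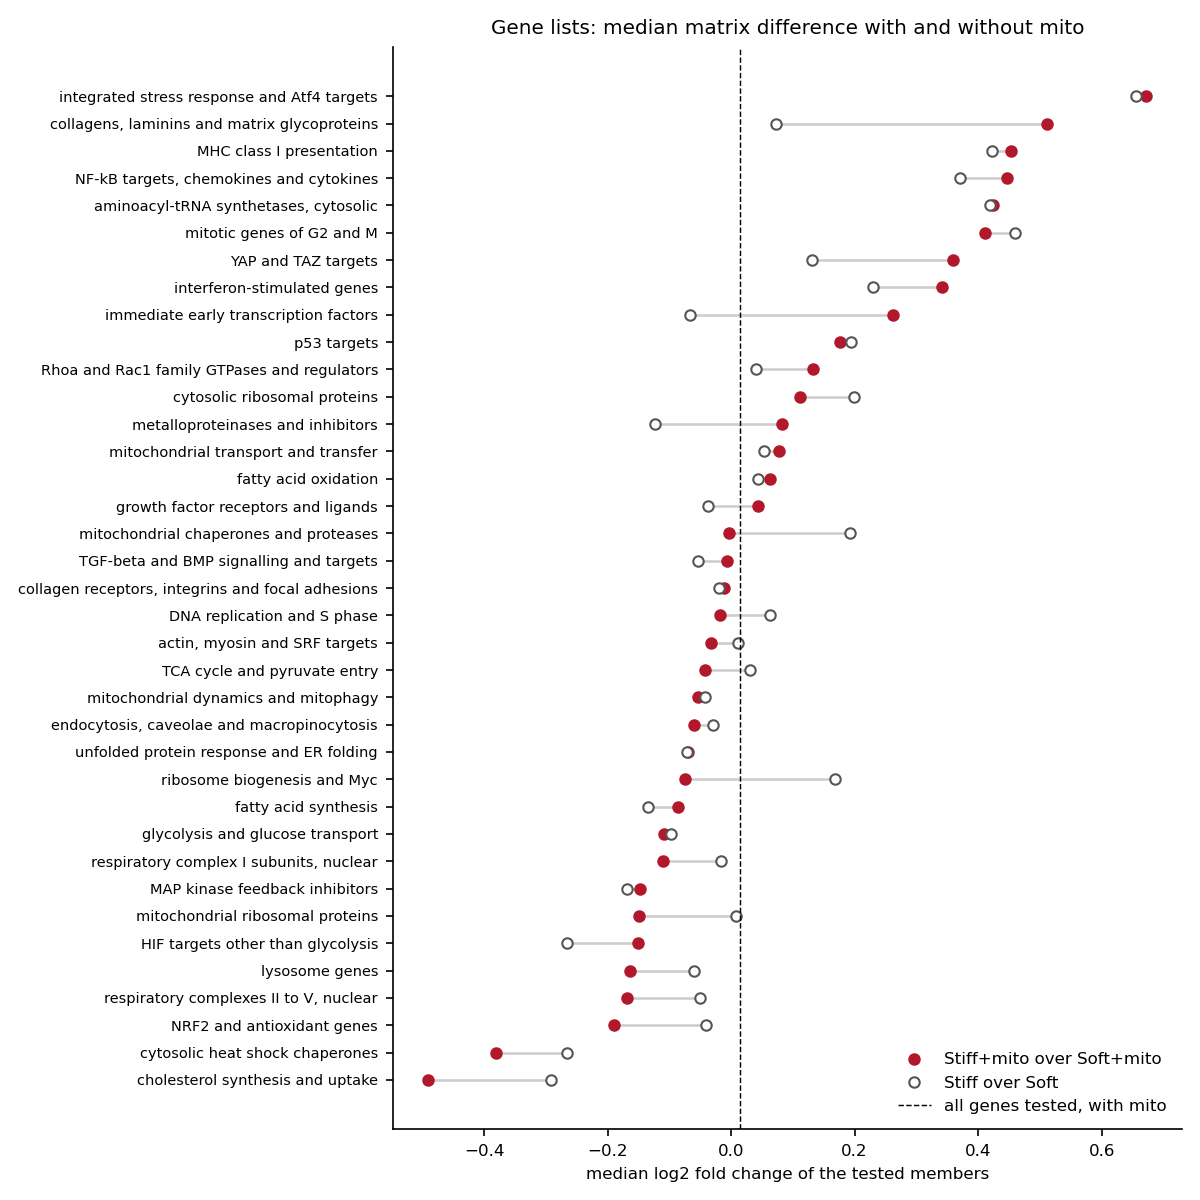
Median log2 fold change of the tested members of 37 gene lists (rows, ordered by the value with mito), Stiff+mito over Soft+mito (filled) and Stiff over Soft (open), with the median of all genes tested at 0.014 (dashed). Integrated stress response genes stand highest at 0.672 and cholesterol genes lowest at -0.490, and the matrix glycoprotein and immediate early lists have the widest gaps between the filled and open points.

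Whether the addition of mito altered the difference between the matrices was asked directly, by testing the difference of the 2 contrasts in 12 libraries that share no sample. It was called in 2888 genes (23.6%), 1278 with a higher (10.4%) and 1610 with a lower contrast with mito (13.1%). It reached 2-fold in 61 genes (0.498%), 46 of them higher. Across the 12245 genes the 2 contrasts had a Pearson's r of 0.715, as a description over genes that are not independent. Of the 4004 genes higher in Stiff+mito, 68.1% were also higher in Stiff, 30.2% were not called there and 1.70% were lower. Of the 3775 lower genes, 63.4% were also lower in Stiff, 33.6% were not called and 2.99% were higher. Among genes called in the same direction in both, the contrast was larger with mito in 518 higher and 502 lower genes, and smaller in 179 and 66. The matrix contrast turned round in 181 genes, 68 of which were higher and 113 lower with mito.

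**Figure D4:**
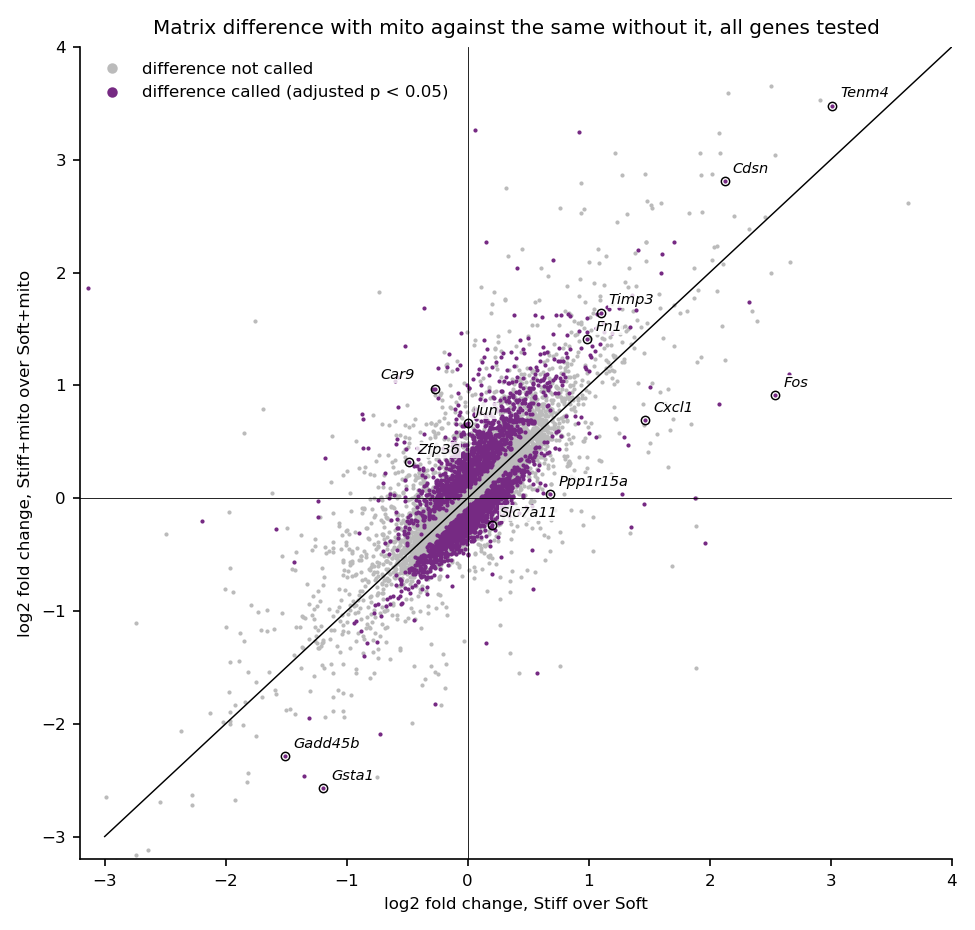
Log2 fold change of each tested gene on the stiff over the soft matrix, with mito (vertical axis) and without it (horizontal axis), with the line of equal values and with the 2888 genes whose difference was called in purple. 17 genes lie outside the drawn range, and Car9 and Jun stand above the line while Fos and Cxcl1 stand below it.

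The largest called rise of the contrast, among genes at 5 CPM or more, was in Car9, a carbonic anhydrase that acidifies the cell surface (gene ID 230099, mm10 chromosome 4, 43507026 to 43513729). It had 77.0, 76.9 and 70.5 TPM in Stiff+mito and 39.2, 37.4 and 37.6 TPM in Soft+mito, against a mean of 29.3 ± 1.18 TPM in Stiff and 37.3 ± 0.835 TPM in Soft. Soft+mito and Soft had nearly the same level, and Stiff+mito stood above the other 3 of these groups (difference 1.23 ± 0.0655, adjusted p 2.97e-31). Car9 was higher still in the TW condition, at 209 TPM in Stiff-TW and 158 TPM in Soft-TW. Klf2, a transcription factor that responds to flow and shear, had 22.4, 22.8 and 22.3 TPM in Stiff+mito and 10.1, 12.0 and 12.0 TPM in Soft+mito, against 2.01 ± 0.586 TPM in Stiff and 2.10 ± 0.107 TPM in Soft. Jun was at 41.9 ± 0.651 TPM in Stiff and 44.5 ± 1.29 TPM in Soft, lower in every Stiff library. The scaled counts that were tested gave a log2 of -0.00 there. By those counts its contrast appeared with mito (difference 0.67 ± 0.0447, adjusted p 4.65e-24). Zfp36, which degrades cytokine mRNAs and was named after its values were seen, averaged 49.0 ± 2.99 TPM in Stiff+mito and 39.0 ± 3.61 TPM in Soft+mito, against 13.7 ± 1.08 TPM in Stiff and 20.3 ± 1.43 TPM in Soft. It was thus higher on the stiff matrix with mito and lower without it (difference 0.81 ± 0.0940).

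Fos moved the other way although its level was highest with mito. It averaged 243 ± 3.32 TPM in Stiff+mito and 128 ± 4.68 TPM in Soft+mito, against 15.9 ± 0.752 TPM in Stiff and 2.87 ± 0.778 TPM in Soft. Its matrix contrast was therefore a log2 of 0.92 with mito and 2.54 without it (difference -1.62 ± 0.114, adjusted p 4.72e-23). Cxcl1 had nearly the same level in Stiff+mito (193 ± 8.39 TPM) and Stiff (188 ± 4.57 TPM), but 118 ± 4.26 TPM in Soft+mito and 70.1 ± 2.34 TPM in Soft. Ppp1r15a, the phosphatase subunit that ends the integrated stress response, had 120 ± 2.74 TPM in Stiff+mito and 117 ± 1.89 TPM in Soft+mito (adjusted p 0.248), against 117 ± 2.61 TPM in Stiff and 77.4 ± 2.05 TPM in Soft. For Gsta1 and Gadd45b the fall on the stiff matrix was larger with mito, Gsta1 having 29.0 ± 0.756 TPM in Stiff and 68.3 ± 6.88 TPM in Soft, and Gadd45b 17.5 ± 2.36 and 52.1 ± 1.71 TPM.

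**Figure D5:**
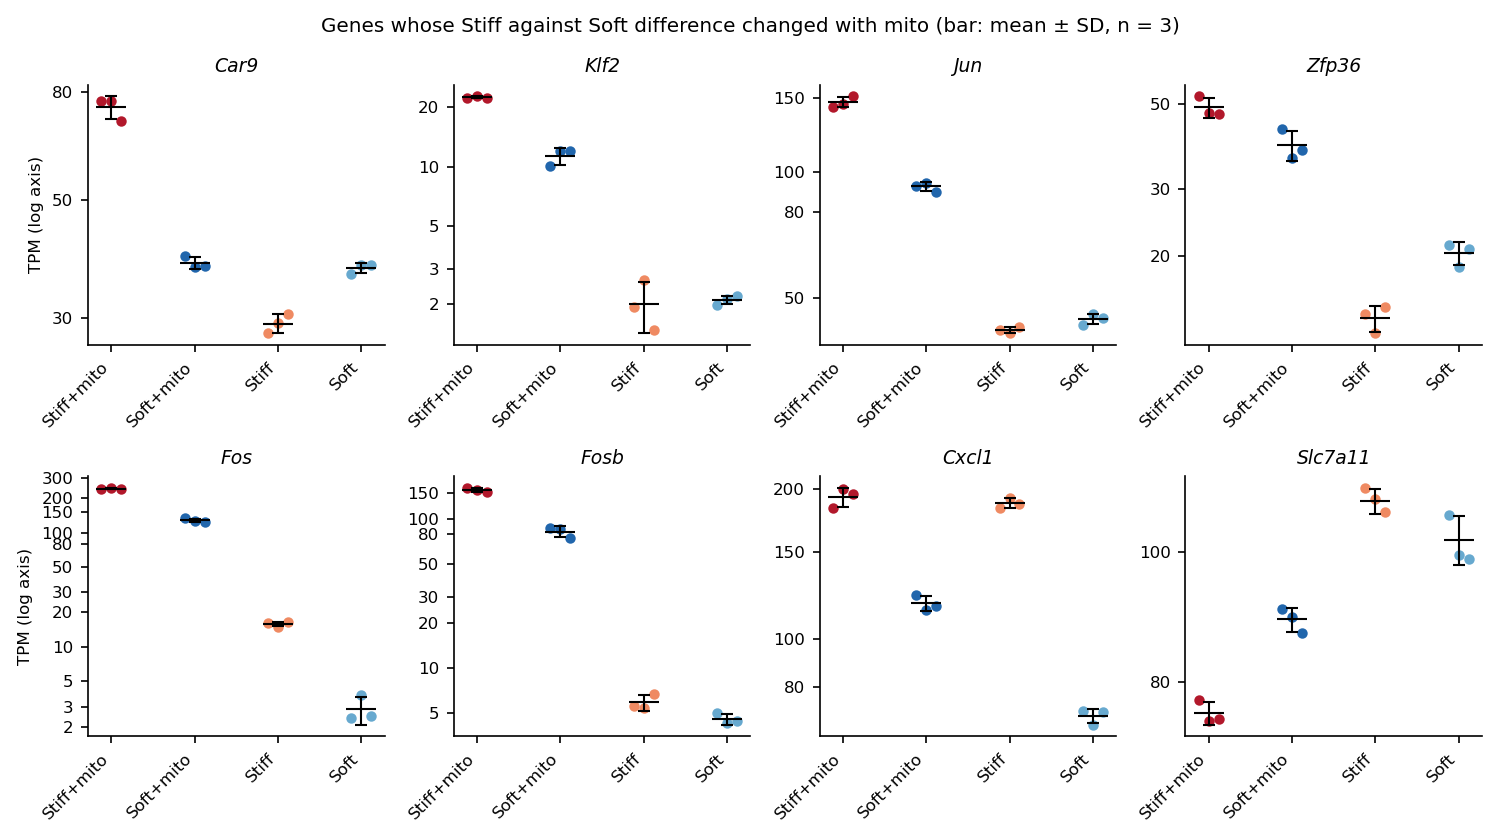
TPM of 8 genes (panels) in each library of Stiff+mito, Soft+mito, Stiff and Soft (points) with the mean and SD of 3 libraries (bars), on log axes. Car9 is high in Stiff+mito at 74.8 TPM on average, Klf2, Jun and Fosb are high in both mito groups, and Slc7a11 is lower in Stiff+mito than in Soft+mito but higher in Stiff than in Soft.

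The matrix contrast with mito was also set against that in the TW condition, which showed 6650 changed genes (54.3%). The difference was called in 3830 genes (31.3%), 2022 of them higher with mito (16.5%). Several of the largest changes with mito were small or not called with TW. Tenm4 averaged 1.65 TPM in Stiff-TW and 1.93 TPM in Soft-TW, and Cdsn 41.0 and 40.1 TPM (adjusted p 0.293). Trib3 averaged 96.1 TPM in Stiff-TW and 94.2 TPM in Soft-TW (adjusted p 0.181), which left a difference of 1.47 between the conditions. In the other direction Sprr1a, at 102 and 112 TPM, and Sox2, at 22.1 and 23.3 TPM, did not pass the test in TW (adjusted p 0.105 and 0.445). Fos and Fosb had larger contrasts in TW, Fos with 98.4 TPM in Stiff-TW and 19.2 TPM in Soft-TW and Fosb with 54.1 and 8.39 TPM. The matrix contrast of integrated stress response genes was called higher with mito than with TW in 30 of 35 members and lower in 2. These genes still rose with TW in 21 and fell in 6, with a median of 0.216. For ribosome biogenesis genes the contrast was called higher with mito in 22 of 36, where 16.5% of all genes tested were. With TW 29 of these fell and 3 rose on the stiff matrix (median -0.274). Their median with mito, -0.075, was thus less negative.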

How the data were processed

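Per the labels, RNA was extracted with TRIzol and poly(A)-selected, and libraries were strand-specific and paired-end. The submitters' processing notes name the mouse build mm10. They name no aligner, counter or annotation. The authors deposited, per the file headers, estimated counts per gene (read_count) and TPM for each library. Of the deposited estimated counts 10.9% were not whole (tolerance 0.001), so they were rounded to whole numbers before testing. Deposited TPM values are printed as levels and entered no test. They do not carry the scaling of the counts tested. A small difference in TPM can therefore depart in size from the log2 fold change, as for Jun in Stiff against Soft. Where reads of near-identical genes were divided, the split depends on that unnamed counter. A further 80 columns of per-library values were not used, and the transcript table was not used.

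edgeR 4.0.16 (R 4.3.3, limma 3.58.1) fitted all 18 libraries with 1 mean per group (12 residual degrees of freedom), after its filter on low counts (filterByExpr by group) and TMM scaling (factors 0.968 to 1.03). Its quasi-likelihood test was used with Benjamini-Hochberg adjustment over 12245 genes and a threshold of 0.05. SEs came from log2 fold changes and the square roots of their F values, and SDs are over 3 libraries. On simulated counts for 12104 genes, 80% of genes changed 1.25-fold, 96% changed 1.5-fold and 100% changed 2-fold were called for Stiff+mito against Soft+mito (50 genes each), with 11 false calls. The changed genes were drawn from those at a mean of 50 counts or more, and every gene had the same coefficient of variation, 0.0175. Recovery at lower counts, and false calls where genes differ in spread, were therefore not tested. Alternatives were DESeq2 1.42.0, RLE size factors, library totals, no filter on low counts, a replicate block, the 6 libraries alone and leaving out each library.

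Of the gene IDs, 18257 (99.2%) matched RefSeq GRCm38.p6, which gave promoter windows. Transcript lengths were those of the longest GENCODE transcript of each gene symbol. The comparison, the 37 gene lists and the tests were chosen with earlier results of these data known. Genes were named by rule: the 15 largest called rises and falls at a mean of 5 CPM or more with no overlap between libraries, the 8 largest called differences of contrasts in each direction, from each list at most 6 members by smallest adjusted p, and Ddr1, Ddr2, Ptk2, Tiam1, Rhoa and Rac1. Ccnb1, Col4a1, Col4a2, Col4a5, Col5a3, Col7a1, Ddit3, Pycr1, Slc38a2, Slc7a11, Sparc, Srebf2, Thbs2 and Zfp36 were named after their values were seen. The sterol and antioxidant motifs and the check of transcript length were added after the data were seen. A few genes that the rule names are not reported here.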

Additional observations from a re-analysis of the deposited data

Results flagged for a closer look

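The difference between the stiff and the soft matrix was itself different with and without mito in 2888 genes, and different between mito and TW in 3830 genes, by edgeR's test of the difference of the contrasts (adjusted p under 0.05, 12 libraries each). The genes below were among those with the largest such differences in either direction among genes at 5 CPM or more, and each value is a difference of log2 fold changes, mito minus the other condition.

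Set against the matrices alone, the contrast was higher with mito by 1.23 for Car9 and by 0.96 for Klf2. Oas3, an interferon-stimulated synthetase, had a difference of 0.90, with 2.33 TPM in Stiff+mito and 1.97 TPM in Soft+mito against 1.23 TPM in Stiff and 2.13 TPM in Soft. Dbp, a clock output factor, had a difference of 0.89, with 31.6 TPM in Stiff+mito and 10.6 TPM in Soft+mito against 16.9 TPM in Stiff and 10.8 TPM in Soft. Pbld2 had a difference of 0.89, Cyp2d22, a cytochrome P450, one of 0.86, and Myo7a, a myosin of sensory hair cells, one of 0.85.

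The contrast was lower with mito by -1.62 for Fos, -1.37 for Gsta1, -0.78 for Gadd45b, -0.77 for Cxcl1 and -0.65 for Ppp1r15a, whose levels are given above. Oasl1, an interferon-stimulated gene, had a difference of -0.99, with 4.44 TPM in Stiff+mito and 6.24 TPM in Soft+mito against 4.98 TPM in Stiff and 3.77 TPM in Soft. The 2 oligoadenylate synthetase family genes Oas3 and Oasl1 thus moved in opposite directions. Cntnap4, a neurexin-family adhesion protein at 1.15 TPM in Stiff+mito and 1.97 TPM in Soft+mito, had a difference of -0.65 (adjusted p 0.0121). It was not called with DESeq2 (adjusted p 0.0626), and was -0.43 without Stiff+mito replicate 1 (adjusted p 0.125 by edgeR). Moap1, an apoptosis regulator at 1.61 ± 0.501 TPM in Stiff+mito and 3.91 ± 0.785 TPM in Soft+mito (SD, n = 3 each), had a difference of -1.43 (adjusted p 0.0436 by edgeR). This call was lost without the filter on low counts (adjusted p 0.0663) and without any one library except Soft+mito replicate 3 (adjusted p 0.0565 to 0.104).

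Set against TW, the contrast was higher with mito by 3.67 for Tenm4, 2.76 for Cdsn, 2.10 for Car6, 1.96 for Aldh1l2, 1.86 for Angptl6, 1.63 for Cth, 1.48 for Pgf and 1.47 for Trib3. Pgf, placental growth factor, was low with mito, at 1.46 TPM in Stiff+mito and 0.773 TPM in Soft+mito, against 17.1 TPM in Stiff-TW and 29.0 TPM in Soft-TW. Car6 was higher on the stiff matrix with mito and lower there with TW, at 11.6 TPM in Stiff-TW and 15.2 TPM in Soft-TW.

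The contrast was lower with mito than with TW by -1.80 for Sprr1a, -1.80 for Gadd45b, -1.79 for Fosb, -1.47 for Fos, -1.26 for Sox2, -1.25 for Ccno and -1.13 for Pls1. Ccno, an atypical cyclin, had 4.87 TPM in Stiff+mito and 8.53 TPM in Soft+mito, against 10.5 TPM in Stiff-TW and 7.89 TPM in Soft-TW. Pls1, an actin bundler, had 1.34 TPM in Stiff+mito and 2.85 TPM in Soft+mito, against 3.82 TPM in Stiff-TW and 3.78 TPM in Soft-TW.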

How the results depend on the processing

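The number of genes changed between Stiff+mito and Soft+mito, 7779, was 6927 with DESeq2, 7796 with RLE size factors, 7786 with library totals, 7767 without the filter on low counts, 7621 in a fit of the 6 libraries only and 7325 to 7442 without any one library. Of the 7779 genes, 88.9% were also called by DESeq2 and 91.4% to 92.7% without any one library. These settings moved the higher genes' share of all changed genes between 49.1% and 51.8%, and the median log2 of all genes by at most 0.013 in size. Genes changed at least 2-fold, 546, moved more, between 436 and 735 over the alternatives. Genes with a called difference between mito and no mito numbered 1941 to 2961, and between mito and TW 2831 to 3929. Of the genes named by rule, all kept their direction under every alternative run, and 3 lost a call. Ptk2 lost it without the Soft+mito library of replicate 2. The differences for Moap1 and Cntnap4 lost it under the settings given with their values. The few list counts that moved by over 1.5 times were small, for example citric acid cycle genes called higher, 7, which were 3 with DESeq2 and 4 without Soft+mito replicate 1, mitochondrial dynamics genes called higher, 4, which were 2 with DESeq2 and with RLE size factors, and YAP and TAZ targets called lower, 5, which were 8 with RLE size factors. Differences of contrasts could not be fitted in the 6 libraries only. The replicate numbers of the labels were not taken to pair the libraries, since same-numbered libraries correlated by 0.074, 0.053 and 0.036 in their deviations, although each correlated best with its own number. With the number as a replicate block, 7824 genes changed, 99.9% of the 7779 among them. Depth limits genes near the TPM that 3 counts give, such as Tiam1.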
